A study of Amphiura filiformis with 28 samples.

Results

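5 genes of the brittle star *Amphiura filiformis* carry names of vertebrate blood clotting and clot dissolving proteins: Plmn-20 (AFI31125), Plmn-19 (AFI30636) and Plmn-18 (AFI30296), named after plasminogen, Fa9-10 (AFI30435), named after coagulation factor IX, and Fa11-3 (AFI29861), named after coagulation factor XI. They were picked by identifier and are 5 of the 30090 genes with values in arm explants. 4 of them are among the 28263 genes with values in the arm regeneration series, and Fa11-3 is not.

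In vertebrates, plasminogen is the circulating precursor of plasmin, a serine protease that dissolves fibrin clots and also cleaves extracellular matrix. Its kringle domains bind lysine residues of fibrin, and a trypsin-type domain does the cutting. Factors IX and XI are likewise precursors of trypsin-type proteases and act in the cascade that ends in fibrin. These roles are known from vertebrates. In the brittle star the names are matches to SwissProt proteins, and the function of none of the 5 genes was measured here.

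The protein domains listed for these genes differ from those of the proteins they are named after. In the gene annotation of the study, Plmn-20 and Plmn-19 have a kringle and an ShK domain, a small fold first described in a sea anemone toxin, and Plmn-18 has a kringle domain. Fa9-10 has fibronectin type III and human-type EGF domains. A trypsin domain is listed only for Fa11-3 of the 5, so 4 of them have the names but not the listed protease domain.

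All 5 genes lie on chromosome 1 of the genome assembly of the study, and 3 of them lie close together. Plmn-20 (9400916 to 9406886, plus strand) and Plmn-19 (9452057 to 9459318, plus strand) are adjacent, 45170 bp apart with 0 annotated genes between them. Fa9-10 (9191008 to 9225729, minus strand) lies 175186 bp before Plmn-20, with 4 genes between them. Plmn-18 (50855762 to 50863740, plus strand) and Fa11-3 (24295036 to 24298842, plus strand) lie elsewhere on the chromosome. Whether the proteins of the 3 plasminogen-like genes are close copies was not analysed here, so how reads were shared out between them by the pseudo-alignment is uncertain.

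Arm explants were cut from the body and then cut again at the far end, so each had a wound at either end. As the study describes it, the distal end regenerates and the proximal end closes its wound without regrowth, while the medial segment serves as the control. Distal, proximal and medial segments were taken at 3 and 5 days post amputation (dpa). Each of the 20 RNA-seq samples came from a pooled batch of pieces. In the study each explant was divided into these segments, so samples of different segments may hold pieces of the same explants.

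Every explant sample is labelled wild type with no treatment. At 3 dpa there were 4 distal, 3 proximal and 4 medial samples, and at 5 dpa there were 3 of each. The age of the animals is not given in the labels. Values are TPM (transcript abundances, scaled by transcript length and by the total of each sample) rescaled between samples with TMM, a method that sets most genes equal between samples. The sequenced depth behind a value cannot be read from them. They are set per transcript length, so levels can be set side by side between genes.

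Across the explant samples, column totals ran between 1024512 and 2976429, and between 1990 and 7439 genes were listed at 0. TPM is scaled by the total of each sample before TMM, so the column totals mainly reflect the TMM rescaling and give no depth. Setting every sample to the same total, as done below, largely takes that rescaling back. Of the proximal samples at 5 dpa, replicate 4 had the highest total of all samples at 2976429, while replicate 1 had 1796168 and replicate 5 had 1101616. Without proximal replicate 5 the genes called between proximal and medial segments at 5 dpa were 1260, and without replicate 4 they were 167, against 419 with all samples. Karg-1 (an arginine kinase) and Titin-35, taken as muscle markers, and Elav4, taken as a neuronal marker, did not pass the test in any comparison of an end with the medial segment. Their cell types were taken from the gene names and were not measured here. None of these 3 markers was at 0 in an explant sample, with values from 0.524 to 2.72 for Karg-1, from 0.896 to 5.43 for Titin-35 and from 38.3 to 60.4 for Elav4.

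The members ran from abundant to barely detected. Over the 20 explant samples Plmn-20 averaged 34.0, above 93.5% of all listed genes, Fa9-10 averaged 7.17, and Plmn-19 averaged 3.81. Plmn-18 never went above 0.357 and was listed at 0 in 6 samples, and Fa11-3 was listed at 0 in 18. Thus 3 of the 5 genes passed the filter (1 or more in 3 or more samples) and entered the fit, and Plmn-18 and Fa11-3 did not.

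**Figure D1:**
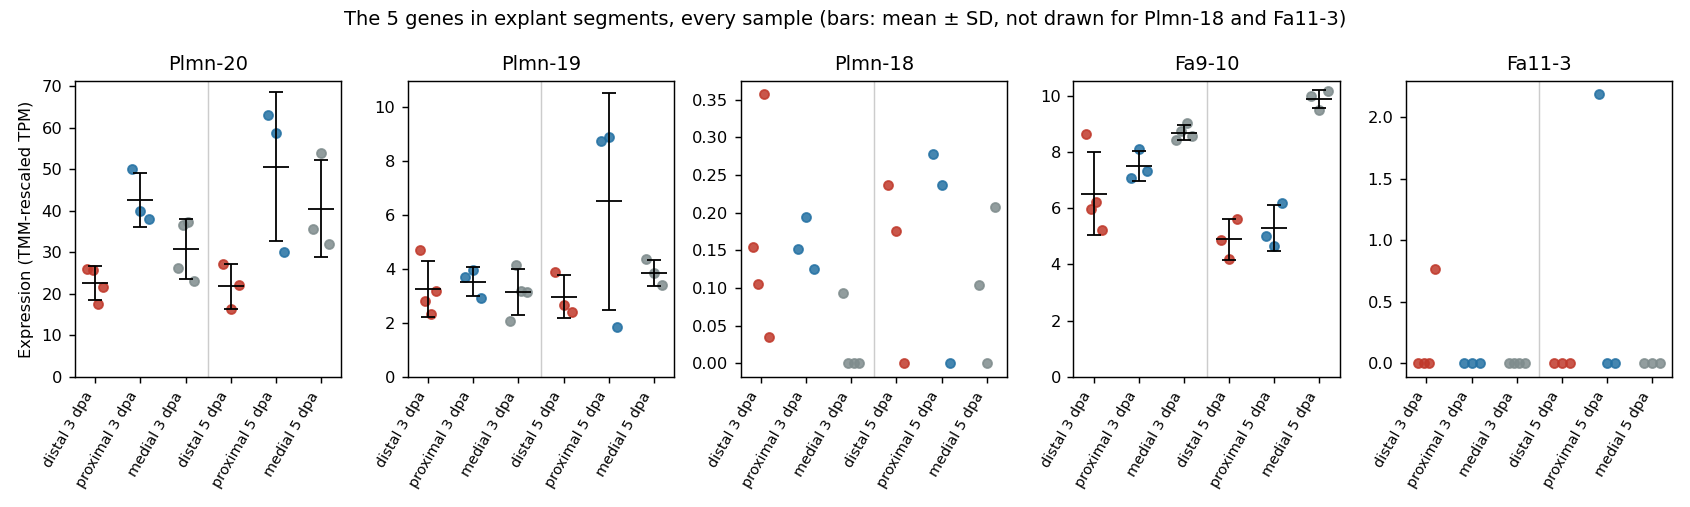
Expression (TMM-rescaled TPM) of the 5 genes in every explant sample by segment and day, with red for distal, blue for proximal and gray for medial segments. Bars give the mean ± SD of 3 or 4 samples for the 3 genes that entered the fit. At 5 dpa the distal and proximal points of Fa9-10 (4.18 to 6.20) lie below all medial points (9.51 to 10.2), while for Plmn-20 only the distal points (16.2 to 27.1) do (medial 32.1 to 53.9).

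The fit was made with limma on log2(value + 1) over all 21442 genes that passed the filter. A gene was called where its p, adjusted by the method of Benjamini–Hochberg, was under 0.05 and its log2 fold change was over 1 or under -1. By both criteria, 1 of the 3 members was called in 1 of 6 comparisons between segments, namely Plmn-20 between distal and proximal segments at 5 dpa. As background, 1.98% of all genes tested were called between distal and medial segments at 3 dpa and 5.47% at 5 dpa, and 7.57% and 14.2% passed on adjusted p at any fold change. Between proximal and medial segments 0.448% were called at 3 dpa and 1.95% at 5 dpa, with 0.686% and 5.47% on adjusted p. Between distal and proximal segments these shares were 0.322% and 1.41%, with 0.723% and 2.46% on adjusted p. The share of all genes without overlap between 2 groups was not computed, so lack of overlap is given below as a description. An exact two-sided permutation p cannot be under 0.1 with 3 against 3 samples, or under 0.0571 with 3 against 4.

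Plmn-20 was lowest in the distal, regenerating segments at both days. At 3 dpa it was 25.9, 25.7, 17.4 and 21.5 in distal samples, 50.0, 39.9 and 38.0 in proximal samples, and 26.1, 36.6, 37.4 and 23.2 in medial samples. Here every proximal sample was above every distal and every medial sample, while distal and medial samples overlapped. At 5 dpa it was 27.1, 16.2 and 22.2 in distal samples, 63.1, 58.8 and 30.0 in proximal samples, and 35.6, 53.9 and 32.1 in medial samples. At this day all distal samples were below all others, and proximal and medial samples overlapped because of proximal replicate 5.

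The difference between the cut ends was the one that passed both criteria. Plmn-20 averaged 21.8 ± 5.42 in distal and 50.6 ± 18 in proximal segments at 5 dpa (SD, n = 3 each), 43.1% of the proximal mean. The log2 fold change was -1.13 (95% interval -1.72 to -0.55, adjusted p = 0.0353). At 3 dpa distal segments averaged 22.7 ± 4.03 (SD, n = 4) and proximal segments 42.6 ± 6.48 (SD, n = 3). This difference of -0.89 (interval -1.44 to -0.34) had an adjusted p of 0.162, and the samples did not overlap. Over 15 alternatives the adjusted p at 5 dpa ran from 0.00398 to 0.306, and the call did not hold in 8 of them. It was lost without any of 4 samples: distal replicate 2 (0.216) or 5 (0.0712), and proximal replicate 1 (0.128) or 4 (0.167). It was also lost with no filter on low values (0.0505) and with samples at 1 common total (0.0798). A fit of only the groups compared (0.306) and a replicate block (0.176) lost it as well. In the block proximal replicate 4 is alone in its number, so that fit leaves it out of the comparison.

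Against medial segments Plmn-20 differed less. In distal segments at 5 dpa the log2 fold change was -0.85 (interval -1.44 to -0.27), since medial segments averaged 40.5 ± 11.7 (SD, n = 3). Its adjusted p of 0.0475 was just under the threshold, was under it in 6 of 15 alternatives, and ran from 0.00999 to 0.200 over them. It was above the threshold without distal replicate 2 (0.200) or 5 (0.0831) and without medial replicate 1 (0.0618) or 2 (0.195). At 3 dpa the distal difference was -0.42 (interval -0.92 to 0.091, adjusted p = 0.361). Proximal segments were above medial segments by 0.47 at 3 dpa (interval -0.073 to 1.02, adjusted p = 0.561) and by 0.28 at 5 dpa (interval -0.31 to 0.86, adjusted p = 0.599). The value at 5 dpa turned to -0.15 with samples rescaled to 1 common total, a step that moved the median of all genes in that comparison to -0.27.

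**Figure D2:**
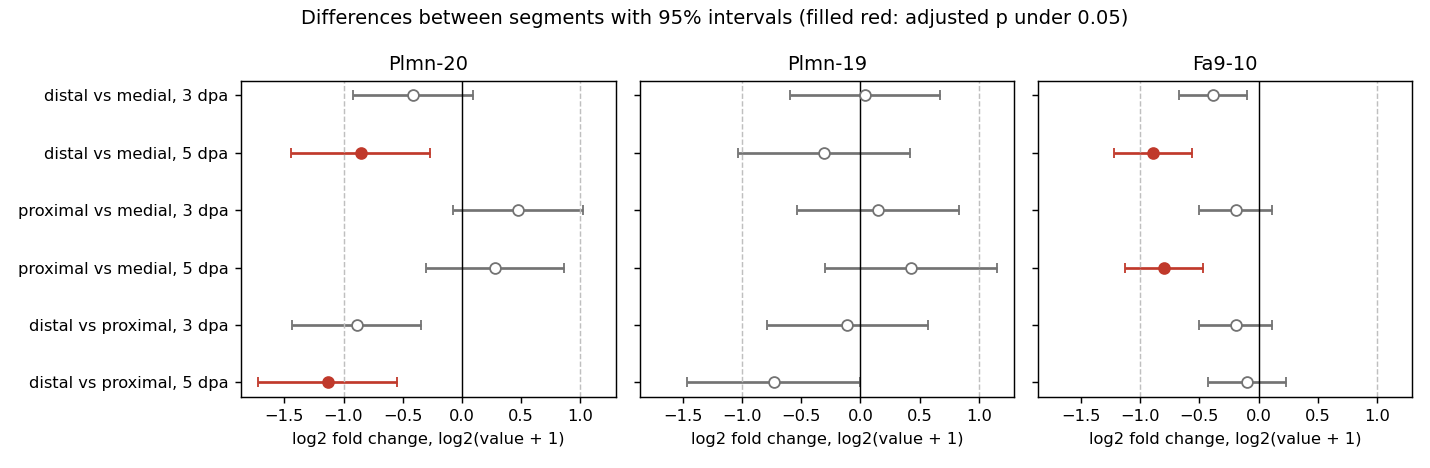
Log2 fold changes on the log2(value + 1) scale between segments at 3 and 5 dpa for the 3 genes that entered the fit, with 95% intervals from limma and dashed lines at -1 and 1. Plmn-20 passes adjusted p in distal against medial (-0.85) and against proximal segments (-1.13) at 5 dpa, Fa9-10 in distal (-0.89) and proximal (-0.80) against medial segments at 5 dpa, and Plmn-19 in none.

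Plmn-19, the neighbour of Plmn-20 with the same domains, did not pass the test in any comparison. At 3 dpa it was 4.71, 2.81, 2.32 and 3.20 in distal samples, 3.69, 3.96 and 2.92 in proximal samples, and 2.06, 4.13, 3.18 and 3.13 in medial samples, which all overlap. At 5 dpa it was 3.88, 2.65 and 2.39 in distal samples, 8.74, 8.90 and 1.86 in proximal samples, and 4.35, 3.84 and 3.39 in medial samples. The highest 2 values and the lowest value of this gene over all explant samples thus belonged to the same group, proximal segments at 5 dpa.

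The proximal samples decided what the fit gave for Plmn-19. Proximal segments averaged 6.50 ± 4.02 and medial segments 3.86 ± 0.483 at 5 dpa (SD, n = 3 each), with a log2 fold change of 0.43 (interval -0.30 to 1.15, adjusted p = 0.506). Without proximal replicate 5 it was 1.02 with an adjusted p of 0.00909, against a range of 0.00909 to 0.974 over 13 alternatives. Against proximal segments, distal segments were at -0.73 at 5 dpa (interval -1.46 to -0.0049, adjusted p = 0.346), and at -1.32 without that sample (adjusted p = 0.00402, in a range of 0.00402 to 0.774). In distal segments against medial segments Plmn-19 was at 0.039 at 3 dpa (adjusted p = 0.967) and -0.31 at 5 dpa (adjusted p = 0.621). Their intervals, -0.59 to 0.67 and -1.03 to 0.42, leave room for changes of either sign.

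The adjacent genes moved together from sample to sample. Over the 20 explant samples Plmn-20 and Plmn-19 had a Pearson r of 0.70 on the log2 scale and a Spearman rho of 0.61, and r was 0.73 after the group means were taken out. These points share libraries and scaling, and the 2 genes may share reads, so the correlation is a description. Fa9-10, nearby on the same chromosome, had r of 0.20 with Plmn-20 and -0.14 with Plmn-19. The level of Plmn-20 was 5.51 to 16.1 times that of Plmn-19, with a median of 9.01. By group this ratio averaged 7.23 ± 1.53 in distal segments (SD, n = 4), 12.2 ± 1.88 in proximal segments (SD, n = 3) and 10.2 ± 2.46 in medial segments (SD, n = 4) at 3 dpa. At 5 dpa it averaged 7.47 ± 1.64 in distal, 9.97 ± 5.31 in proximal and 10.6 ± 3.09 in medial segments (SD, n = 3 each).

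In the proximal samples at 5 dpa both genes were, as deposited, higher in replicates 1 and 4 than in replicate 5. Column totals were also higher in replicates 1 and 4, at 1796168 and 2976429, than in replicate 5, at 1101616. With every sample at the same total, Plmn-20 was 48.6, 27.3 and 37.6 in replicates 1, 4 and 5, so that replicate 4 was the lowest. Plmn-19 was then 6.73, 4.13 and 2.34, and replicate 5 was still the lowest. With the values of Plmn-18, Plmn-19 and Plmn-20 summed, an alternative chosen after the data had been seen, the sum was lower in distal than in proximal segments at 5 dpa by a log2 fold change of -1.11 (adjusted p = 0.0436). Against medial segments the sum was at -0.81 in distal segments at 5 dpa, with an adjusted p of 0.0653.

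**Figure D3:**
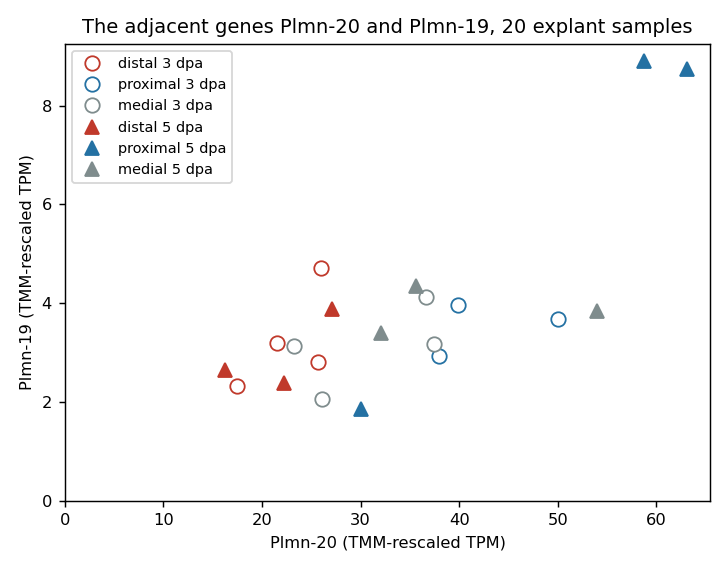
Level of Plmn-19 against that of Plmn-20 (both TMM-rescaled TPM) in 20 explant samples, with color for the segment, circles for 3 dpa and triangles for 5 dpa. Proximal samples at 5 dpa hold the 2 highest points (Plmn-19 at 8.74 and 8.90) and the lowest Plmn-19 value (1.86).

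Plmn-18 was close to 0 in explants. At 3 dpa it was 0.155, 0.106, 0.357 and 0.0354 in distal samples and 0.152, 0.194 and 0.125 in proximal samples, against 0.0938 and 0 in 3 others in medial samples. The proximal samples were all above the medial ones and the distal samples overlapped them. An exact two-sided permutation test gave p = 0.0571 for distal against medial segments (n = 4 each), where the smallest p possible is 0.0286. For proximal (n = 3) against medial segments (n = 4) the exact permutation p was also 0.0571, the smallest this size allows. At 5 dpa Plmn-18 was 0.236, 0.176 and 0 in distal samples, 0.278, 0.237 and 0 in proximal samples, and 0.104, 0 and 0.208 in medial samples, with exact permutation p of 0.8 and 0.6 for the ends (n = 3 each, smallest possible 0.1). Of the medial samples at 3 dpa, replicate 2 had 6099 genes at 0, and the other 3 had between 2529 and 3976. Since the values keep no depth, a level listed at 0 was not detectable rather than absent.

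Fa9-10 varied little within most groups. At 3 dpa it was 8.63, 5.96, 6.23 and 5.23 in distal samples, 7.06, 8.09 and 7.30 in proximal samples, and 8.43, 8.73, 9.03 and 8.56 in medial samples. Proximal samples were all below medial samples, and 1 distal sample, replicate 1, lay within the medial range. At 5 dpa it was 4.88, 4.18 and 5.61 in distal samples, 5.02, 4.66 and 6.20 in proximal samples, and 9.99, 9.51 and 10.2 in medial samples. Both ends lay below medial segments without overlap, and the 2 ends overlapped each other.

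By 5 dpa Fa9-10 was lower at both wounds, the regenerating and the closing one. Distal segments averaged 4.89 ± 0.717, proximal segments 5.29 ± 0.806 and medial segments 9.88 ± 0.335 (SD, n = 3 each), so that the ends had 49.5% and 53.6% of the medial mean. The log2 fold change was -0.89 in distal segments (interval -1.22 to -0.56, adjusted p = 0.00105) and -0.80 in proximal segments (interval -1.13 to -0.47, adjusted p = 0.00717). Both passed on adjusted p and were not called, as the fold change on the log2(value + 1) scale was under 1. On adjusted p the distal result passed in 14 of 14 alternatives (up to 0.0483) and the proximal one in 13 of 14, with 0.328 in a fit of only the groups compared.

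Between the ends no difference of Fa9-10 was detected at 5 dpa, with a log2 fold change of -0.10 and an interval of -0.42 to 0.23 (adjusted p = 0.855). With every sample rescaled to the same total this value was 0.094. At 3 dpa the changes against medial segments were -0.39 in distal segments (interval -0.67 to -0.10, adjusted p = 0.0960) and -0.19 in proximal segments (interval -0.50 to 0.12, adjusted p = 0.720). Distal segments against proximal segments were at -0.19 at 3 dpa (interval -0.50 to 0.12, adjusted p = 0.802).

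Over the 20 explant samples the Pearson r with Fa9-10 was 0.62 for Titin-35, 0.49 for Elav4 and 0.27 for Karg-1. After the group means were taken out, r was 0.17 for Titin-35, 0.21 for Elav4 and 0.019 for Karg-1. At 5 dpa Titin-35 ran from 1.98 to 2.30 in distal, from 0.896 to 2.26 in proximal and from 2.28 to 5.43 in medial samples. Its log2 fold changes against medial segments were -0.50 in distal (adjusted p = 0.151) and -0.72 in proximal segments (adjusted p = 0.0677). Elav4 was at -0.18 and -0.24, and Karg-1 at -0.42 and -0.38. The part of muscle content in the values of Fa9-10 was not tested. In bulk samples, fewer cells of a type and less RNA per cell cannot be told apart.

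Fa11-3, the only member with a listed trypsin domain, was listed at 0 in 18 of 20 explant samples. It was 0.762 in distal replicate 4 at 3 dpa and 2.18 in proximal replicate 1 at 5 dpa. Against medial segments the exact two-sided permutation test gave p = 1 in each of 4 comparisons (n = 3 or 4 per group). Each comparison held at most 1 value above 0, so no smaller p was possible and no conclusion is drawn from it. Tmps2-2, which also has a trypsin domain, ends 78 bp before Fa11-3 begins. Its values were at most 0.0816, and it was above 0 in the same distal replicate 4 (0.0253) and listed at 0 in proximal replicate 1 at 5 dpa.

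None of the 3 fitted genes passed the test between 5 and 3 dpa in the same segment, and Plmn-18 and Fa11-3 were not tested between days. As background for this comparison, 0.835% of genes were called in distal, 0.0979% in proximal and 0.00466% in medial segments. Fa9-10 had log2 fold changes of -0.34 in distal (interval -0.65 to -0.031, adjusted p = 0.257), -0.44 in proximal (interval -0.77 to -0.11, adjusted p = 0.214) and 0.17 in medial segments (interval -0.14 to 0.48, adjusted p = 0.669). Values of Fa9-10 did not overlap between days in proximal segments (4.66 to 6.20 at 5 dpa, 7.06 to 8.09 at 3 dpa) and in medial segments (9.51 to 10.2 at 5 dpa, 8.43 to 9.03 at 3 dpa). How many of all genes were without such overlap was not computed, so no conclusion is drawn from it.

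The change of an end against the medial segment was also compared between days. For Fa9-10 the change at 5 dpa minus that at 3 dpa was -0.51 in distal segments (interval -0.94 to -0.071, adjusted p = 0.590) and -0.60 in proximal segments (interval -1.06 to -0.15, adjusted p = 0.938). For Plmn-20 it was -0.44 (interval -1.21 to 0.34) and -0.20 (interval -0.997 to 0.61), and for Plmn-19 -0.34 (interval -1.31 to 0.62) and 0.28 (interval -0.72 to 1.27), with adjusted p from 0.845 to 0.973. Of all genes 0.0886% were called for the distal difference and 0% for the proximal one, where limma gave 0 genes, with 1077 at an unadjusted p under 0.05. It is therefore not shown that any of the 3 genes changed differently at the 2 days.

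A list of 24 further chromosome 1 genes with domains of proteases of this kind, of their inhibitors or of clotting proteins was examined beside the members, and 16 of them passed the filter. Against medial segments at 5 dpa, 2 of these 16 were called lower and 0 higher in distal segments, and their median log2 fold change was -0.46, with 0.0079 over all genes tested. Of all 21442 genes tested, 440 were called lower and 733 higher in that comparison. In proximal segments none of the 16 was called, with a median of -0.10, and over all genes -0.0042. At 3 dpa 1 was called lower in distal segments (median -0.29, and 0.0052 over all genes) and 0 in proximal segments (median -0.043, and 0.017 over all genes). Of all genes tested, 61 were called lower and 364 higher in distal segments at 3 dpa. Several Kazal domain genes of the list lie close together on the chromosome, so the list genes may not be independent of each other.

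Both called genes carry domains of protease inhibitors, as do 10 of the 16 genes tested, so the count is no sign of an inhibitor theme. Teff2, with a Kazal domain and named after tomoregulin-2, a membrane protein, was 4.64, 2.45 and 5.70 in distal samples at 5 dpa, against 11.7, 17.4 and 16.9 in medial samples. Its log2 fold change was -1.67 (interval -2.18 to -1.17, adjusted p = 0.000191), and it was -1.16 at 3 dpa (adjusted p = 0.00143). Proximal samples at 5 dpa were 10.1, 19.4 and 11.1, overlapping the medial ones, and distal segments were below them by a log2 fold change of -1.47 (adjusted p = 0.00238). Agrin-17, with Kunitz and Kazal domains and named after the matrix proteoglycan agrin, was 1.98, 2.69 and 3.52 in distal samples at 5 dpa, against 4.55, 11.1 and 10.6 in medial samples. Its log2 fold change was -1.32 (interval -1.94 to -0.71, adjusted p = 0.00524), and distal segments at 5 dpa were also below those at 3 dpa by -1.26 (adjusted p = 0.0212). In proximal segments Agrin-17 was at -0.33 (adjusted p = 0.552) and Teff2 at -0.21 (adjusted p = 0.661).

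Further list members passed on adjusted p with smaller changes. In distal segments at 5 dpa, Co3-6, a complement C3-like gene with alpha-2-macroglobulin domains, was higher by 0.68 (adjusted p = 0.0275), and Kazd1-1, a Kazal domain gene, by 0.85 (adjusted p = 0.0262). Bssp4, with trypsin and WAP domains, was lower in distal segments by a log2 fold change of -0.54 (adjusted p = 0.0400) and in proximal segments by -0.66 (adjusted p = 0.0286). Of the 5 list genes with a trypsin domain 3 passed the filter, and the others, Thrb-6, named after thrombin, and Tmps2-2, were at most 0.147 and 0.0816. The trypsin genes Test-6 and Test-5 were at -0.74 (adjusted p = 0.103) and -0.45 (adjusted p = 0.282) in distal segments at 5 dpa. Ror2, a receptor kinase and the only further kringle gene of the list, was at 0.10 (adjusted p = 0.835).

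**Figure D4:**
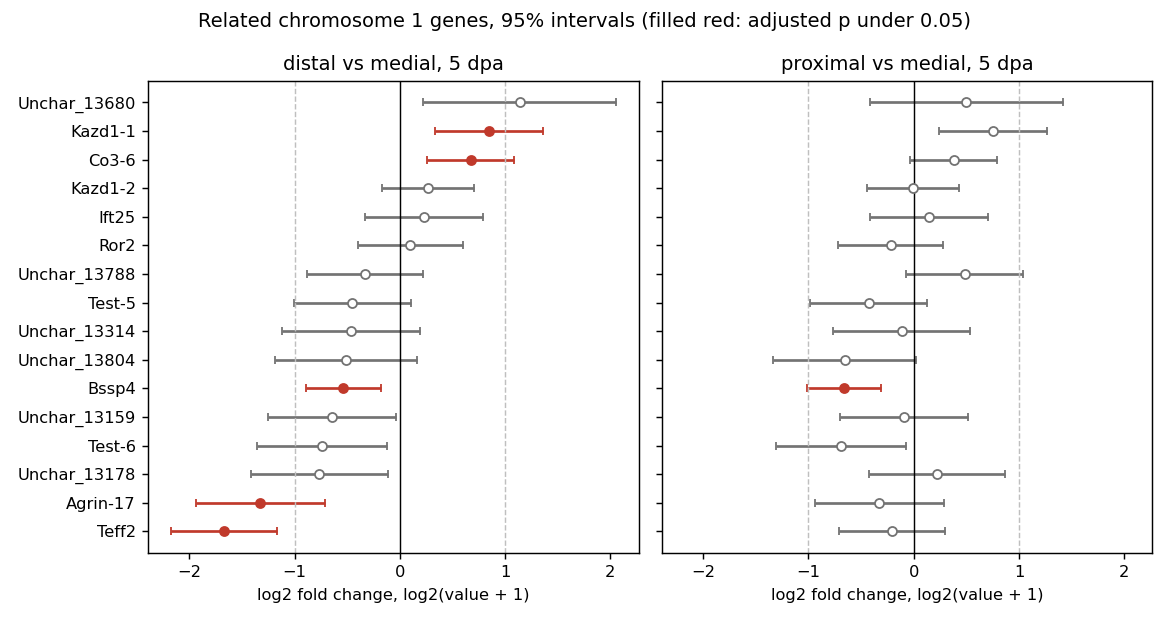
Log2 fold changes on the log2(value + 1) scale against medial segments at 5 dpa in distal (left) and proximal segments (right) for the 16 list genes that passed the filter, with 95% intervals from limma. Teff2 (-1.67) and Agrin-17 (-1.32) are past -1 in distal segments, and in proximal segments only Bssp4 (-0.66) passes adjusted p.

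None of the 14 neighbouring genes that passed the filter was called between an end and the medial segment. On adjusted p, Rpab1, a subunit of RNA polymerases that lies between Fa9-10 and Plmn-20, was higher in distal segments by 0.73 at 3 dpa (adjusted p = 0.00612) and 0.84 at 5 dpa (adjusted p = 0.00432). The uncharacterized gene between Rpab1 and Plmn-20 (AFI30259) was lower in proximal segments at 5 dpa, with a log2 fold change of -0.56 (adjusted p = 0.0454). The mitochondrial malate dehydrogenase-like Mdhm, near Fa11-3, was higher at both ends at 5 dpa, by 0.65 in distal (adjusted p = 0.0113) and 0.68 in proximal segments (adjusted p = 0.0208). Near Plmn-18, an uncharacterized gene (AFI30108) was at -0.60 in distal segments at 5 dpa (adjusted p = 0.0402). In proximal segments Rpab1 was at 0.28 at 3 dpa (adjusted p = 0.606) and 0.59 at 5 dpa (adjusted p = 0.0609).

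The genes most like each member were found by the Pearson correlation of log2(value + 1) over the 20 explant samples, which share libraries and scaling. For Plmn-20 they were AFI30778 (r = 0.90), AFI27997 (0.89) and AFI01952 (0.89), and among named chromosome 1 genes Tlr2-17, a Toll-like receptor (0.79). For Plmn-19 they were AFI21178 (0.86), AFI11342 (0.85) and AFI04137 (0.83), and Tbb4b-4, a beta-tubulin (0.79), and Ccni, a cyclin (0.74). For Fa9-10 they were AFI23767 (0.92), AFI00359 (0.90) and AFI18800 (0.90), and Hyal-82 (0.86), a hyaluronidase-like gene, and Hil-1 (0.81). No gene was named for more than 1 of the 3.

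The arm regeneration series holds 1 pooled sample of untreated wild type arms per stage: a control arm, 48 and 72 hours post amputation, stages 3, 4 and 5 of early regrowth, and the distal (50% D) and proximal (50% P) parts of more advanced regenerates. In the study the control was a mature arm segment, and at 48 and 72 hours the last segment at the cut was taken. From stage 3 onward regenerated tissue was taken, so stage and dissected tissue change together. As listed in this series, the order of Plmn-20 and Plmn-19 differed between stages. In the control arm Plmn-20 was 74.1 and Plmn-19 0.544, while at stage 4 Plmn-20 was 0.0776 and Plmn-19 0.391. At stages 3 and 5 both genes were listed at 0, and at the 50% D stage Plmn-19 was 0.626 with Plmn-20 at 0. Where Plmn-19 was the higher gene, both were at most 0.626 in single samples of unknown depth. No conclusion is drawn from the order there. In explants Plmn-20 was the higher gene in all 20 samples. The series and the explants were normalized separately, so levels are not compared across them.

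Scaling decided the size of the early differences in the series. At 48 and 72 hours Plmn-20 had 33.2% and 16.1% of its control value as deposited, and 76.8% and 45.5% with every sample at the same total. Plmn-19, at 1.06 or less in the series, had 102% and 195% of its control value as deposited, and 236% and 553% at the same total. For Fa9-10 these were 27.7% and 33.9% as deposited, and 64.0% and 96.0% at the same total. Plmn-20 from stage 3 onward was at most 0.159 as deposited and at most 0.318 at the same total, far under its control value on either scale. Plmn-18 was highest at stage 3 (0.777) and at 0 in 4 of 8 samples. Without replicates none of these differences has an error. The dissected tissue also changed at stage 3, from arm segments to regenerated tissue, so stage and tissue cannot be told apart.

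**Figure D5:**
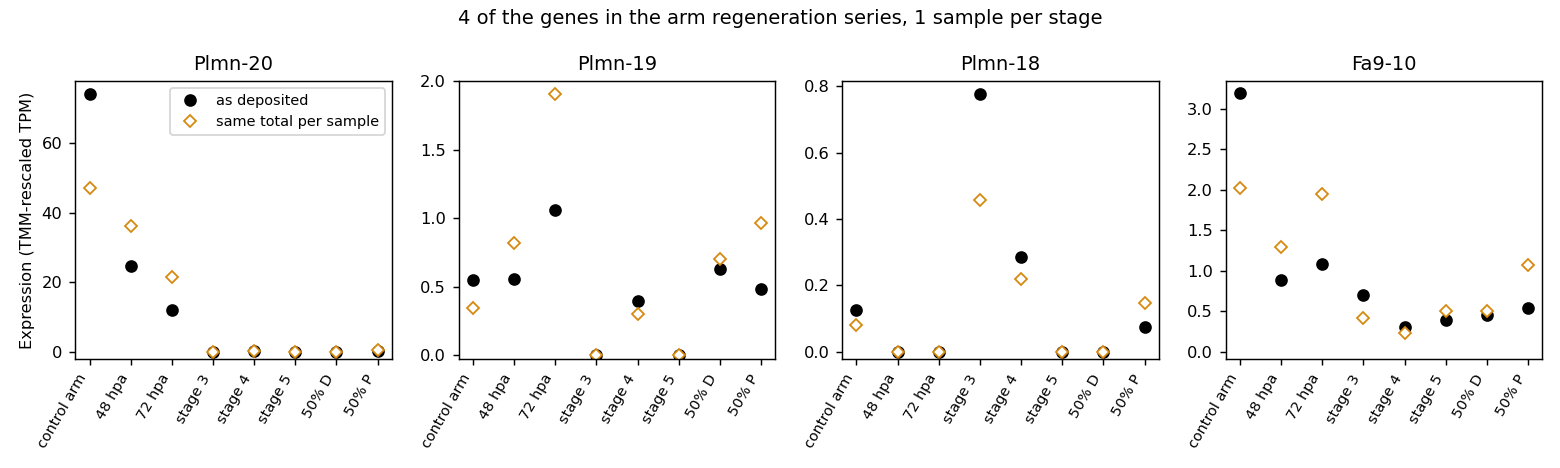
Level of 4 of the genes (TMM-rescaled TPM) in the arm regeneration series, 1 sample per stage, as deposited (filled circles) and with every sample at the same total (open diamonds). Plmn-20 is 74.1 in the control arm as deposited and at most 0.159 from stage 3 onward. Regenerated tissue was dissected from stage 3 onward, and arm segments before it. Fa9-10 at 72 hours moves from 33.9% to 96.0% of the control with the scaling.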

How the data were processed

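RNA was sequenced from 20 explant samples and from 8 samples of the arm regeneration series of *A. filiformis*. The deposited values are a signal: the authors quantified reads with kallisto and rescaled TPM values with TMM in edgeR, so counts and depth cannot be read from them. The strand setting of kallisto is not given in the sources used here. Samples were grouped from their labels. Batches of pieces are the replicates, and p-values measure the spread between batches. Where segments came from the same explants, the fit without a replicate block leaves that pairing out.

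The test of explants was limma (3.58.1, under R 4.3.3) with a mean-dependent prior variance, on log2(value + 1). It took in the 6 groups with all 20 samples and kept genes that reached 1 in 3 or more samples. Exact permutation tests (scipy 1.17.1) were used for members under this filter. The p-values were Benjamini–Hochberg adjusted over 21442 genes. The limma step was tested on simulated data. Other steps used Python 3.11.15, numpy 2.4.6, pandas 2.3.3 and matplotlib 3.10.9.

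The members and lists were chosen with earlier results of these data known. Genes named are the members, 24 chromosome 1 genes with related domains (those past the threshold or on adjusted p, and examples per domain), 2 neighbours on each side, and the 3 most correlated genes plus 2 named ones per member, of which 1 is not reported here. Genes that passed on adjusted p alone were added after their values had been seen. Markers were Karg-1, Titin-35 and Elav4. Names, domains and coordinates come from the annotation of the study. Alternatives were a pseudocount of 0.1, other filters, limma without trend, other scalings, only the groups compared, a replicate block, a sum of the plasminogen-like genes and each sample left out. The sequences of the genes were not used here.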

Additional observations from a re-analysis of the deposited data

Results flagged for a closer look

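In groups of 4 samples, 2 values stood apart from the others of their group, out of 9 groups examined. In both groups the other 3 samples were listed at 0, which by itself sets such a value apart whatever its size, so the usual chance rate of about 1 in 20 does not apply. Plmn-18 was 0.0938 in medial replicate 1 at 3 dpa, with the other medial samples listed at 0. Fa11-3 was 0.762 in distal replicate 4 at 3 dpa, with the other distal samples listed at 0. Groups of 3 samples were not examined in this way. A different change at the 2 days was not shown for any of the 3 fitted genes by the test of that difference, and Plmn-18 and Fa11-3 were not tested for it.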

How the results depend on the processing

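The call of Plmn-20 between distal and proximal segments at 5 dpa (-1.13) did not hold with no filter on low values (-1.13, adjusted p = 0.0505), with every sample rescaled to the same total (-0.87), in a fit of only the groups compared (-1.13, adjusted p = 0.306) and with the replicate block (-1.01, adjusted p = 0.176). Leaving out 1 sample at a time gave -1.47 to -0.94. Against medial segments at 5 dpa, values went past -1 for Plmn-20 in distal segments at the same total (-1.03; -1.02 to -0.64 with 1 sample left out) and for Fa9-10 in distal segments at a pseudocount of 0.1 (-1.01) and at the same total (-1.04) and in proximal segments at the same total (-1.14). The same total turned the sign of Plmn-20 in proximal against medial segments at 5 dpa (-0.15) and in proximal segments between days (-0.30), of Plmn-19 in distal against proximal segments at 3 dpa (0.013) and in the proximal change between days (-0.039), of Fa9-10 in distal against proximal segments at 5 dpa (0.094), and of Plmn-18 in proximal against medial segments at 5 dpa (-0.0083). Causes were not tested.

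With 1 sample left out, the sign of these small differences turned for at least 1 sample: Fa9-10 in distal against proximal segments at 5 dpa (-0.18 to 0.0058), Plmn-18 (-0.028 to 0.13) in distal against medial segments at 5 dpa and Plmn-19 in distal against medial segments at 3 dpa (-0.11 to 0.15). It also turned in distal segments between days for Plmn-19 (-0.25 to 0.062) and Plmn-20 (-0.22 to 0.13), in proximal segments between days for Plmn-20 (-0.010 to 0.51), and in the proximal change between days for Plmn-19 (-0.024 to 0.87) and Plmn-20 (-0.39 to 0.14). Plmn-19 became called without proximal replicate 5, in the range 0.13 to 1.02 for proximal against medial segments, -1.32 to -0.43 for distal against proximal segments at 5 dpa, and 0.23 to 1.13 for proximal segments between days.

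Counts of genes called moved by over 1.5 times as follows. In a fit of only the groups compared they were 608 for distal and 14 for proximal against medial segments at 5 dpa, 115 and 10 for distal against proximal segments at 3 and 5 dpa, and 0 for proximal and 0 for medial segments between days. At the same total they were 53 for proximal against medial segments at 3 dpa, 186 for distal against proximal segments at 5 dpa, 0 for medial segments between days and 1 for the distal change between days. The share of calls that were higher at 5 dpa was then 40.4% instead of 62.5% in distal and 20.8% instead of 77.6% in proximal against medial segments, and 58.6% instead of 33.0% in distal against proximal segments. The medians of all genes in these comparisons moved to -0.12, -0.27 and 0.18. The stricter filter gave 53 for proximal and 6 for medial segments between days and 11 for the distal change. A pseudocount of 0.1 gave 2 for medial segments between days and 1 for the proximal change between days, and no filter and limma without trend gave 0 for medial segments between days. With 1 sample left out, counts ran from 167 to 1260 (proximal against medial, 5 dpa), 58 to 99 (proximal against medial, 3 dpa), 20 to 90 and 140 to 586 (distal against proximal, 3 and 5 dpa), 100 to 176, 1 to 448 and 0 to 180 (distal, proximal and medial segments between days), and 11 to 31 and 0 to 1 (distal and proximal change between days). The counts of 1260, 586 and 448 came without proximal replicate 5, and that of 180 without medial replicate 1.

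The replicate block gave 187 for proximal against medial and 158 for distal against proximal segments at 5 dpa, and changed no other call of a member. Samples of the same number had deviations correlated over the limit in 13 of 17 pairs (r from -0.041 to 0.40, median 0.18, against a limit of 0.1, and a median of -0.066 for other numbers), and 13 of 19 samples correlated best with their own number. This hints at shared batches in part of the samples. As not every pair was over the limit and the labels do not say what a number marks, the fit without the block was kept. Each explant was divided into its segments, so samples may be paired, and this fit leaves such pairing out. With the block the only call of a member, Plmn-20 between distal and proximal segments at 5 dpa, was lost. Proximal replicate 4 at 5 dpa has no other sample of its number, so the block takes it out of the comparisons. Without that sample and with no block the call was lost as well. The counts were then 167 for proximal against medial and 169 for distal against proximal segments at 5 dpa. The blocked fit thus cannot separate pairing from the loss of that sample, and no conclusion on pairing is drawn.

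Depth is unknown, so no precision is given for low values such as those of Plmn-18 and Fa11-3. The groups hold 3 or 4 samples, 3 of the 5 genes entered the fit, how reads were shared between similar genes is not known here, and the fold change on the log2(value + 1) scale understates that of low genes.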

Other observations

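Both genes of the related list that were called lower in distal segments had their highest deposited value of the arm regeneration series in the control arm, where each stage is 1 sample and differences have no error. Teff2 was 9.30 in the control arm, 0.423 at 48 hours, 0.291 at 72 hours, at most 0.10 at stages 3 to 5, 0.0350 at the 50% D stage and 3.48 at the 50% P stage. Agrin-17 was 10.7 in the control arm, 3.62 at 48 hours, 4.56 at 72 hours and at most 0.255 later. With every sample at the same total these orders turned: Agrin-17 was 6.75 in the control arm and 8.19 at 72 hours, and Teff2 was 5.89 in the control arm and 6.94 at the 50% P stage. Both genes were at most 0.0940 at stages 3 to 5 and at the 50% D stage on that scale. Regenerated tissue was dissected from stage 3 onward and arm segments before it, so stage and tissue cannot be told apart here. Bssp4, which has a WAP inhibitor domain and was lower in distal segments on adjusted p alone, was 4.05 in the control arm, between 2.75 and 4.30 at 48 hours to stage 5, 5.32 at the 50% D stage and 7.41 at the 50% P stage as deposited. Ror2 was between 0.110 and 0.533 in all 8 samples.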
